A study of Mus musculus with 2 samples.

Results

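The interleukin-1 and interleukin-36 family was followed in skin RNA of Pla2g2f-transgenic mice and their littermates, through 10 genes chosen by name: the ligands Il1a, Il1b, Il18, Il33, Il1f6, Il1f8 and Il1f9, the receptor antagonists Il1rn and Il1f5, and the decoy receptor Il1r2. Il1f6, Il1f8 and Il1f9 encode IL-36 alpha, beta and gamma, and Il1f5 encodes the IL-36 receptor antagonist. All 10 genes were found on the array by gene name or RefSeq accession, through 14 probes, among 27594 genes or transcripts named there. The groups were Pla2g2f-Tg/+ mice and littermate controls, both on the C57BL/6 background and 25 days old, kept in the same kind of pathogen-free housing on 1 standard diet. RNA from the skin of 4 mice was pooled per genotype and hybridised to 2 arrays with exchanged dyes, the transgenic pool in Cy5 on array 1 and in Cy3 on array 2. Which promoter drives the transgene is not stated in the labels. Nothing in the labels states separate pools for the arrays, so they count as 1 technical replicate pair, no test across mice is possible, and the spread given below is that between the arrays.

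Cytokines of the IL-1 family act as alarm signals of barrier tissues. Keratinocytes hold several of them ready, and injury or proteases release or activate them. Il1a and Il1b bind Il1r1, the IL-36 ligands bind Il1rl2 and Il33 binds Il1rl1, each with the shared chain Il1rap, while Il18 uses Il18r1 and Il18rap. The signal passes through MyD88 and IRAK kinases to NF-kappaB. Il1rn and Il1f5 block the IL-1 and the IL-36 receptor without signalling, and Il1r2 captures IL-1. In skin, IL-36 is best known for its part in psoriasis, and loss of the human IL-36 receptor antagonist causes a pustular form of that disease.

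Levels were read through 60-base probes, and what a probe can report depends on its sequence. The Il1f6 probe was well above background in the transgenic pool only, and the Il18 probe in both pools. The probes below are those of Il1f6 and Il18, the bright and the dim probe of Il1r2, and a dim probe of Il1f9. They are shown because the text turns on whether they were detected. They are written in lower case, 5′ to 3′, as in the scanner file.
Il1f6: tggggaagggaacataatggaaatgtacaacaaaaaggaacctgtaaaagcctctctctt
Il18: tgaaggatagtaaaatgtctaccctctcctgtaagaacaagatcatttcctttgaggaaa
Il1r2, bright: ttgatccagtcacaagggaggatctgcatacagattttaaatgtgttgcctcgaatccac
Il1r2, dim: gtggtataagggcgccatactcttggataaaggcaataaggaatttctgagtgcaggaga
Il1f9, dim: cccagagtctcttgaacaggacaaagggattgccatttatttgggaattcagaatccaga
On the mm8 assembly of the array design the Il1f6 probe covers chr2:24038681-24046449, a stretch of 7769 bases, and the Il18 probe covers chr9:50331595-50333723, a stretch of 2129 bases, so both cross at least 1 exon junction. The bright Il1r2 probe lies within chr1:40067715-40067774. No 2 probes of different members shared a run of over 9 bases in any of 87 pairs, read on the printed strand.

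Detection came first. Array 1 is the array with scanner output here, and its program marks a spot as well above background separately in each channel. Of the 14 probes, 4 were well above background in both channels, 3 in the transgenic channel alone, 0 in the control channel alone and 7 in neither. Over the whole array, 10456 genes passed in at least 1 channel and 9191 in both. The share that passed in each channel alone is not given here. On array 1 the transgenic pool was in Cy5 only, so pool and dye cannot be told apart in this split. Members with a measured probe were therefore 7 of 10. Il1f5, Il18, Il33 and Il1r2 were measured in both pools, and Il1f6, Il1f8 and Il1rn in the transgenic pool only. Il1a, Il1b and Il1f9 were measured in neither. Passing through the transgenic channel alone favours genes that lie higher there, so the passing of these 3 genes supports nothing by itself.

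**Figure D1:**
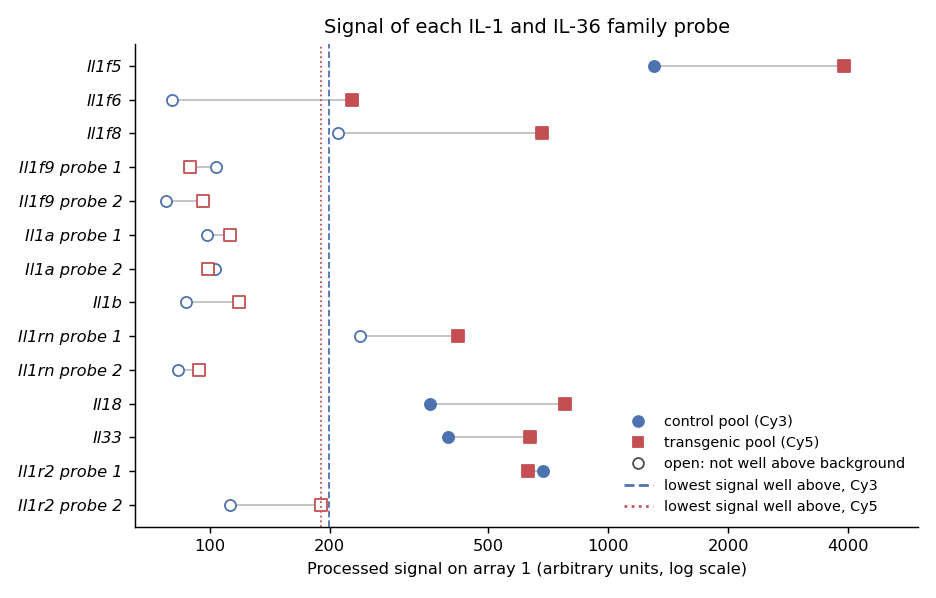
Processed signal (arbitrary units, log axis) of each member's probes on array 1, control pool as circles and transgenic pool as squares; open symbols are not well above background, and the dashed and dotted lines mark the lowest signals well above background, 199 in Cy3 and 190 in Cy5. Il1f5 stands at 1305 and 3908, and the 7 probes undetected in both pools lie between 77.8 and 190.3.

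Across the whole array, 1 or both channels of array 1 were well above background for 13341 of 41167 probes (32.4%), which stand for 10456 genes. Pla2g2f itself had log2 ratios of transgenic over control of 0.54 and 0.34 on the arrays, a mean ratio of 1.36-fold. A gene was called when both arrays put it at 2-fold or more in a shared direction. By this rule 389 genes (3.72% of those measured) were higher in the transgenic pool and 176 (1.68%) lower, a 68.8% share of higher calls. RNAs spiked in as controls, read by 10 probes, had a median log2 ratio of 0.38 on array 1 and 0.58 on array 2. The mean of these medians is a shift of 0.48 towards the transgenic channel. Centring on these spike-ins turned the share of higher calls to 25.9%, with 159 genes higher and 454 lower. Ratios below are on the arrays' own scale, where the median gene lay at -0.0079.

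Among the 7 measured members, 3 were called higher (Il1f5, Il1f6 and Il1f8), against 3.72% of all measured genes, and 0 were called lower, against 1.68%. All 3 belong to the IL-36 branch. Because Il1f6 and Il1f8 were dim in the control channel, the fairer count is that of genes detected in both pools: 1 of 4 members, Il1f5, against 2.64% of such genes. With a 1.5-fold rule Il18 joined, making 4 members against 8.26% of all measured genes. The median of the 7 mean log2 ratios was 1.03, a description only, since 3 of the genes entered through the transgenic channel.

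**Figure D2:**
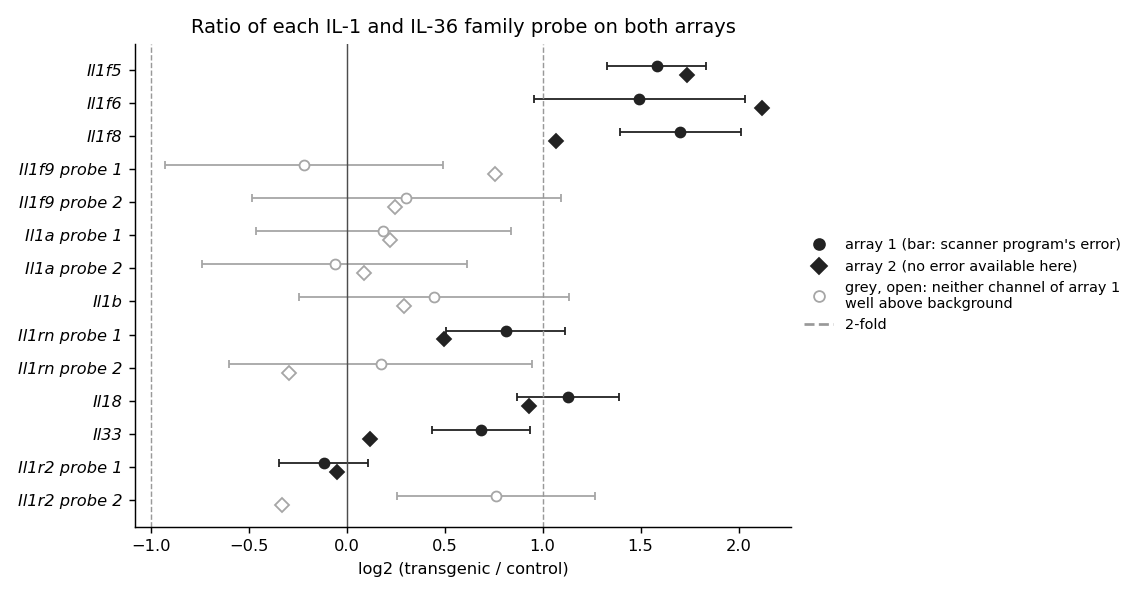
log2 ratio of transgenic over control for each probe of the members, circles for array 1 with the error given by the scanner program and diamonds for array 2, with 2-fold marked by dashed lines. Il1f5, Il1f6 and Il1f8 lie above 2-fold on both arrays, Il18 at 1.13 and 0.93 lies at the line, and Il1r2 lies at -0.12 and -0.05.

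The IL-36 receptor antagonist Il1f5 was the best measured of the 3. Its probe (NM_019451, mm8 chr2:24103950-24104009) had a signal of 1305 in the control pool and 3908 in the transgenic pool on array 1. The log2 ratio was 1.58 on array 1, with an error of 0.25 from the scanner program, and 1.74 on array 2. The mean of 1.66 ± 0.11 (SD of the arrays, n = 2) is a 3.16-fold higher level. The transgenic pool was higher on both arrays by far more than the arrays differed. On the mean ratio Il1f5 stood at rank 159 from the top among 10456 measured genes. It kept its call under every setting tried, at 2.27-fold when centred on the spike-ins and 2.14-fold on array 1 with normexp background correction.

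Il1f6, the ligand IL-36 alpha, had a signal of 80.6 in the control pool, not well above background, and of 227 in the transgenic pool. Its log2 ratios were 1.49 and 2.12, a mean of 1.81 ± 0.44 (SD, n = 2). Taking the lowest well-above-background signal as the control level, it was at least 1.14-fold higher on array 1. That bound is not strict, since the undetected control signal of Il1rn, 239, lay above the level taken. It is small because the transgenic signal of Il1f6 itself lay close to the detection limit. The measured mean of 3.50-fold therefore rests on 1 dim channel. With normexp the array 1 ratio was 0.18 and the call was lost.

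Il1f8, the ligand IL-36 beta (NM_027163, mm8 chr2:23982128-23982187), had a signal of 210 in the control pool, not well above background, and of 682 in the transgenic pool. The log2 ratios were 1.70 and 1.07, with a mean of 1.38 ± 0.45 (SD, n = 2), or 2.61-fold. The undetected control signal was itself above the lowest signal marked as well above background, so the bound on array 1 equals the ratio of 3.26-fold and adds nothing to it. Array 2 put Il1f8 only just past 2-fold, at 2.09-fold. Centred on the spike-ins its array 2 ratio was 0.49, and the call was lost, as it was with normexp (0.52 on array 1).

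Il1f9, the ligand IL-36 gamma, could not be assessed. Its 2 probes had signals of 77.8 to 104 in both pools and were not above background even by the program's weaker flag. Their log2 ratios, 0.31 and 0.25 for one and -0.22 and 0.76 for the other, are those of background.

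The IL-36 genes and Il1rn are neighbours on chromosome 2, in the order Il1f8, Il1f9, Il1f6, Il1f5, Il1f10 and Il1rn among protein-coding genes in the RefSeq annotation. Il1f6 and Il1f5, both called higher, are next to each other, and Il1f9, between Il1f8 and Il1f6, was not assessed. Il1f10, which encodes IL-38, a further member of this family, was not well above background in either channel. Its signal was 176 in the control pool and 89.9 in the transgenic pool, both below the lowest signal that counts as well above background. Only its control channel passed the program's weaker flag for a signal above background. With neither channel well above background, the log2 ratios of Il1f10, -0.97 and -1.50, give neither a direction nor a fold.

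**Figure D3:**
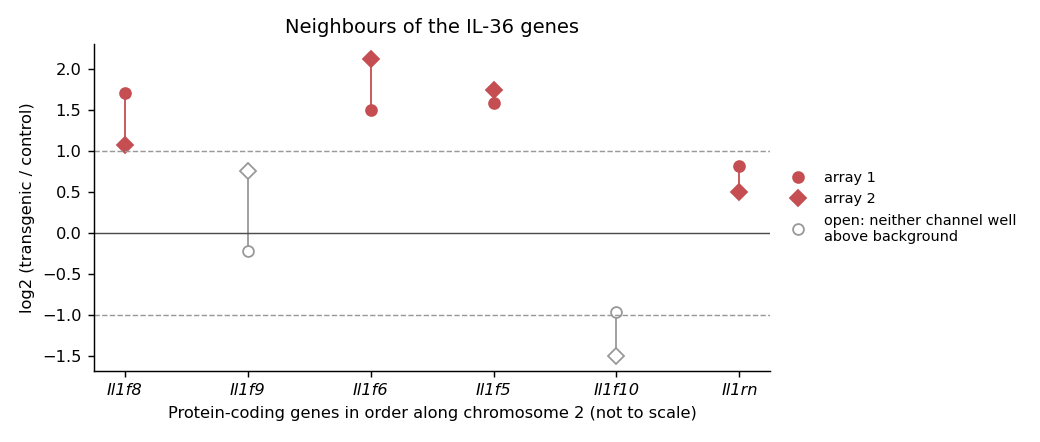
log2 ratio of transgenic over control on array 1 (circles) and array 2 (diamonds) for 6 neighbouring genes on chromosome 2, each by its brightest probe, in order and not to scale; open grey symbols are not well above background in either channel. Il1f8, Il1f6 and Il1f5 lie above 1 on both arrays, and the open symbols of Il1f9 and Il1f10 show no measured difference.

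Of the 3 members called higher, Il1f5 and Il1f8 had promoter entries and Il1f6 had none, so the 250 bases before the starts of those 2 genes are shown (RefSeq, GRCm38.p6, plus strand), at chr2:24276704-24276953 for the upstream start of Il1f5 and chr2:24152922-24153171 for Il1f8, with capitals marking an AP-1 match.
Il1f5: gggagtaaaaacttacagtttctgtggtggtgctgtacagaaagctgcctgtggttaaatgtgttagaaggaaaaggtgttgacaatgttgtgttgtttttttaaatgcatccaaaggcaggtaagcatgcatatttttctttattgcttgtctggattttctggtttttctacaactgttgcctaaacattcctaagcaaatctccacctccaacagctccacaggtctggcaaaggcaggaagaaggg
Il1f8: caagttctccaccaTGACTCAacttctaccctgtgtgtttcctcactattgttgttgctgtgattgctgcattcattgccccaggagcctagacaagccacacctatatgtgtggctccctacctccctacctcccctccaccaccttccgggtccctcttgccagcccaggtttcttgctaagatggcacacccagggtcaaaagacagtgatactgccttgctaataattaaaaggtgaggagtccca
The AP-1 motif, searched as TGANTCA on both strands, was found 236 bases before the start of Il1f8 and in 3 of 13 windows of 9 matched members, all but Il1f6, the others being Il1a and 1 start of Il1rn, against 6.75% of 32851 windows of all genes. The NF-kappaB consensus was found in 0 of the 13 windows and in 7.25% of all, so no overlap between the motifs arose. These are letter matches in short windows and say nothing about binding.

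Neither IL-1 ligand was detected, while Il1rn and Il1r2 were measured. Il1a, a ligand stored in keratinocytes, had signals of 98.5 and 103 in the control pool and of 112 and 99.1 in the transgenic pool for its 2 probes, all at background. Il1b, the ligand made by activated myeloid cells, had signals of 87.1 in the control pool and 119 in the transgenic pool. Only the transgenic channel passed the program's weaker flag for a signal above background. A difference in Il1a or Il1b was not detectable at this signal, which does not show that there was none.

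Il1rn, the IL-1 receptor antagonist, was measured by 1 of 2 probes (mm8 chr2:24172614-24172673). Its signal was 239 in the control pool, not well above background, and 419 in the transgenic pool. The log2 ratios of 0.81 and 0.50 gave a mean of 0.65 ± 0.22 (SD, n = 2), or 1.57-fold, short of the rule. Its other probe was at background in both pools, with log2 ratios of 0.17 and -0.29. Centred on the spike-ins the mean of Il1rn was 0.17 and the array 2 ratio -0.083.

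Il1r2, the decoy receptor that binds IL-1 without signalling, did not pass. Its bright probe had signals of 684 and 631 in the control and transgenic pools, with log2 ratios of -0.12 and -0.05. The mean was -0.083 ± 0.050 (SD, n = 2), near the median gene. Centring on the spike-ins, which lowers every gene alike, put the mean of Il1r2 at -0.56, or 0.68-fold. The dim probe printed above gave 0.76 and -0.33, so the arrays disagreed on its sign. It was not well above background in either channel.

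Il18 and Il33, ligands present in resting epithelium and stroma, were both measured in both pools. Il18 (NM_008360), which activates lymphocytes after cleavage by caspase-1, had signals of 357 in the control and 780 in the transgenic pool. Its log2 ratios of 1.13 and 0.93 gave a mean of 1.03 ± 0.14 (SD, n = 2), or 2.04-fold. It missed the rule on array 2 alone, at 1.91-fold, and by array 1 alone it would pass. It lay just outside the rule, as Il1f8 lay just inside. Centred on the spike-ins the mean of Il18 was 1.47-fold.

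Il33 (NM_133775, mm8 chr19:30026497-30026556), a nuclear alarmin released by damaged cells, had signals of 396 in the control and 637 in the transgenic pool. The log2 ratios were 0.69 and 0.12, with a mean of 0.40 ± 0.40 (SD, n = 2). The arrays differed by more than the mean, and centring on the spike-ins gave a mean of -0.077. No direction can be given for Il33.

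**Figure D4:**
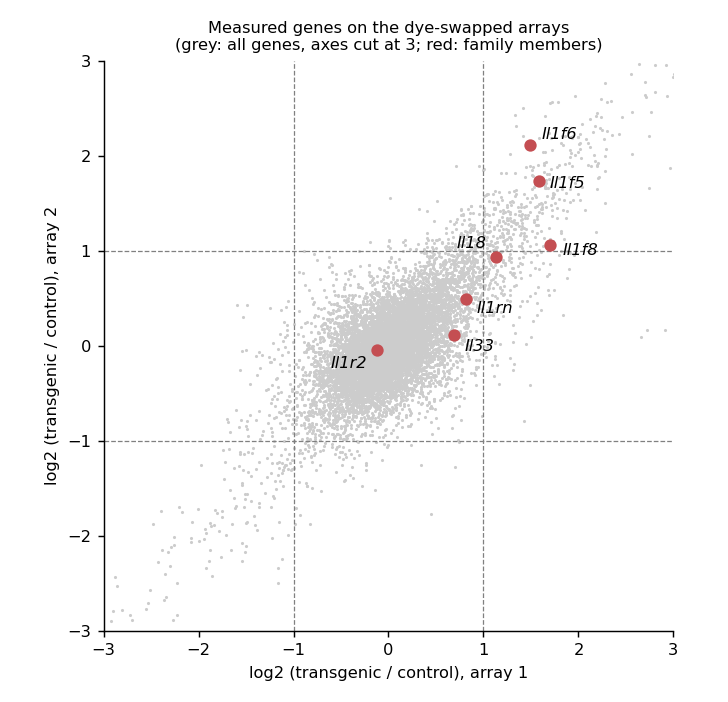
log2 ratio of transgenic over control on array 1 (horizontal) against array 2 (vertical) for the 10456 measured genes in grey and the 7 measured members in red, with dashed lines at 2-fold and axes cut at 3. Il1f5, Il1f6 and Il1f8 lie in the upper right corner past both lines, Il18 lies beside it and Il1r2 lies near the centre.

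The receptors of the family were described next, from a list of 10 receptors and binding proteins, of which 4 were measured, 1 was higher and 0 were lower, with a median log2 ratio of 0.71, or 0.24 under spike-in centring. The shares over all measured genes were 3.72% higher and 1.68% lower. Sigirr and Il1rl1 passed through the transgenic channel alone, which favours genes that lie higher there. Of the 2 receptors detected in both channels, Il1r1 and Il1rl2, 0 were called. Sigirr, an inhibitory receptor of this family, had log2 ratios of 1.01 and 1.21. It was dim in the control channel, where it was at least 1.69-fold higher, and lost the call when centred on the spike-ins or with normexp. Il1rl1, the IL-33 receptor, had ratios of 1.69 and 0.53 by 1 of 3 probes and did not pass; it too was dim in the control channel. Il1r1, the signalling receptor of IL-1, had signals of 1692 and 1791 and log2 ratios of 0.08 and -0.08. Il1rl2, the IL-36 receptor, had ratios of 0.27 and 0.36 by a probe from a cDNA clone, while its RefSeq probe was at background. Il1rap, Il18r1, Il18rap, Il18bp, Il1rapl1 and Il1rapl2 were not measured.

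Of 17 proteases and inflammasome genes with a probe, which process or release the ligands, 10 were measured, 2 were higher and 0 were lower, against 3.72% and 1.68% of all measured genes. The median was 0.61, or 0.13 under spike-in centring, and 9 of the 10, both called genes included, were detected in both channels. Casp4, the inflammatory caspase that senses bacterial lipopolysaccharide inside cells, had signals of 308 and 1449 and log2 ratios of 2.23 and 2.41, a 5.00-fold mean. It lost the call with normexp, at 0.94 on array 1. Ctss, a lysosomal protease of antigen-presenting cells, had ratios of 1.88 and 1.42, a 3.13-fold mean, and lost the call centred on the spike-ins. Casp1, which cleaves the precursors of IL-1 beta and IL-18, had ratios of 0.86 and 0.84, and its adaptor Pycard 0.65 and 0.67, both short of the rule. Gsdmd, which forms the pore through which these cytokines leave, had ratios of 1.09 and 0.95 with a dim control channel. Nlrp3, Nlrc4, Aim2 and the neutrophil proteases Elane, Ctsg and Prtn3 were not measured.

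Of 17 adaptors and kinases of the pathway, 12 were measured and 0 were called higher or lower. With shares of 3.72% and 1.68% over all measured genes, 0 of 12 does not set the list apart. The median was 0.024, or -0.46 under spike-in centring. Irak3, a brake on this signalling, had ratios of 1.49 and 0.75, and Irak2, a kinase, 0.82 and 1.16; both were dim in the control channel. Tab2, an adaptor, lay lowest by each gene's brightest probe, at -0.61 and -0.11. Another measured probe of Tab2 had ratios of -0.11 and 0.058, so the arrays disagreed on its sign. Myd88 lay at 0.23 and 0.39.

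Among NF-kappaB genes and their inhibitors, 8 of 11 were measured, 1 was higher and 0 were lower, against 3.72% and 1.68% of all measured genes, with a median of 0.45, or -0.027 under spike-in centring. All 8 were detected in both channels. Nfkbiz, a nuclear regulator that IL-1 and IL-36 are known to induce, had signals of 359 and 1640. Its log2 ratios of 2.19 and 1.90 gave a 4.13-fold mean, and it kept the call with the spike-ins and with normexp. Nfkbia, an inhibitor induced by NF-kappaB, had ratios of 0.75 and 0.98, short of the rule. Relb, Nfkb1 and Tnip1 had means of 0.49, 0.47 and 0.44.

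Of 26 textbook targets of IL-1 or IL-36 in skin with a probe, 7 were measured, 6 were higher and 0 lower, against 3.72% and 1.68% of all measured genes, with a median of 1.86. Ccl2, Defb3 and S100a8 passed through the transgenic channel alone; of the 4 detected in both channels 3 were higher, against 2.64% of such genes. The list was chosen knowing that alarmins are high in these samples, so its count is no independent evidence. S100a9 and S100a8 are the subunits of calprotectin. The mean of S100a9 on the log2 scale was 6.95. S100a8 was dim in the control channel and at least 26.4-fold higher on array 1. Its mean log2 ratio of 5.90 rests on that dim channel. The stress keratin Krt16 had a mean of 3.38. With normexp the array 1 ratio was 5.02 in place of 7.12 for S100a9, 2.56 in place of 5.72 for S100a8 and 2.59 in place of 3.70 for Krt16, and all 3 kept the call. Ccl2, a monocyte chemokine, and Defb3, a beta-defensin, had means of 1.86 and 1.63, both dim in the control channel and at least 1.78-fold and 1.85-fold higher on array 1. Mmp3, a matrix protease, had a 2.14-fold mean and lost the call centred on the spike-ins, as did Defb3; with normexp Ccl2, Defb3 and Mmp3 lost it. The neutrophil chemokines Cxcl1, Cxcl2, Cxcl3 and Cxcl5 and the cytokines Il6, Tnf, Il23a and Il17c were among 19 targets not measured.

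**Figure D5:**
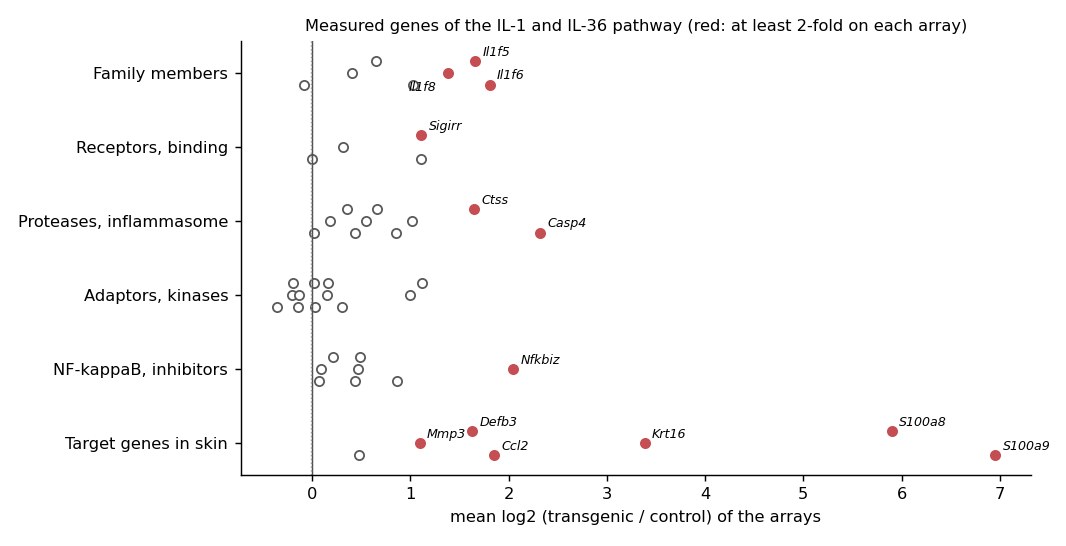
Mean log2 ratio of transgenic over control of the arrays for each measured gene of the family and of 5 pathway lists, one point per gene, red where at least 2-fold on each array. The targets reach 6.95 (S100a9), Casp4 lies at 2.32 and Nfkbiz at 2.05, and the 12 adaptors and kinases hold no red point.

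Whole skin mixes many cell types, and more cells of a type cannot be told apart from more RNA per cell. The calls below stand beside shares of 3.72% higher and 1.68% lower over all measured genes. Keratinocyte markers, 5 of 6 measured, had a summed signal of 154342 in the control and 262005 in the transgenic pool on array 1, with Krt14 and Krt1 called higher. Most of that sum came from Krt5 and Krt10, with means of 0.61 and 0.99 and no call, and Trp63 had ratios of 0.05 and -0.39. Macrophage and monocyte markers, 5 of 7 measured, had sums of 11116 and 25994, with Adgre1 and Lyz2 called and Cd68 and Cd14 not measured. Langerhans and dendritic markers, 3 of 5 measured, had sums of 3815 and 9389, all 3 called, while the defining Cd207 and Itgax were not measured. Hair shaft and matrix markers, all 6 measured, fell from a sum of 59683 to 9231, and all 6 were called lower. Of these, Krt34, Krt31 and Hoxc13 were dim in the transgenic channel, so they passed through the control channel alone. Fibroblast markers, 6 of 6 measured, had sums of 411355 and 428401 with no call, and 0 of 7 neutrophil markers with a probe were measured. Sebaceous markers, 3 of 4 measured, had sums of 8100 and 39175, all 3 called higher. Mast cell and T cell markers, 4 of 5 and 2 of 6 measured, held no call, and of 4 measured endothelial markers 1 was called higher, with Pecam1 not measured. The part of these differences in the ratios of Il1f5, Il1f6, Il1f8, Il18, Ctss and the other genes above was not tested.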

How the data were processed

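The spots of array 1 became deposited intensity values in Agilent Feature Extraction 9.5.1.1, per the submitters' processing notes. Per the file headers, spatial detrending and surrogates for dim signals were on, global background correction was off, and dye normalisation carried LOWESS settings. Surrogates can compress the ratios of dim probes. Its deposited log10 ratio error was used, and its deposited p-value, a model of 1 spot, was not. The authors' deposited value table holds log10 of Cy5 over Cy3, equal on array 1 to the processed signals at all 43790 features within 5.0e-10. As deposited, the columns correlated at -0.579 over probes, so array 2 was turned, as the dyes in the labels require. Values were converted to log2, flagged outlier spots (29) dropped and spots averaged. On array 1 a probe was kept if either channel was well above background, and the brightest kept probe stood for a gene. Names came from RefSeq (GRCm38.p6): 24370 probes by accession, 6300 by symbol and 2425 by synonym; 8072 kept the array's name.

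With 1 pool per genotype, genes were called by size (2-fold on each array); all members are named, and from each pathway list up to 5 measured genes by absolute mean, others being named after their values were seen. An "at least" fold divides the bright signal on array 1 by the lowest signal well above background; it is open to dye bias and no strict limit. Among 22 probes with repeated spots the median SD of the log2 ratio was 0.098 and 0.11 on the arrays. Signal and the number of arrays limit the precision. Array 2's scanner output was not used here. Normexp (offset 50) with loess used limma 3.58.1 in R 4.3.3; the rest used Python 3.11.15 and pandas 2.3.3, with the rule tested on simulated data. Members and lists were chosen with earlier results of these data known.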

Additional observations from a re-analysis of the deposited data

How the results depend on the processing

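The count of higher members was 3 to 4 when 1 array was left out (Il18 joined without array 2), and 1 (Il1f5) both with normexp and loess on array 1 and with only probes detected in both channels. It was 2 centred on the spike-ins. The count of lower members stayed at 0 in every setting. Over all measured genes, higher and lower calls numbered 107 and 56 with normexp, 159 and 454 centred on the spike-ins, 243 and 86 with the filter on both channels, which tests fewer genes, and 864 and 397 at 1.5-fold. With 1 array left out they ranged from 520 to 568 and from 259 to 274. Of 60 values of single members under the alternatives, 59 kept their sign, the exception being Il33 centred on the spike-ins (-0.077). That count was largely fixed in advance. No filter on dim probes, averaged probes, flagged spots kept and the filter on both channels all returned the main value wherever they gave one. Values with 1 array left out are the array ratios that make up the mean. The log2 ratio ranged from 1.18 to 1.74 for Il1f5, 1.15 to 2.12 for Il1f6, 0.79 to 1.70 for Il1f8 and 0.55 to 1.13 for Il18. The high ends are values of a single array. The low ends of Il1f6 and Il1f8 average the normexp ratio of array 1 with the deposited ratio of array 2. On array 1 alone normexp gave 0.185 for Il1f6 and 0.516 for Il1f8. With the filter on both channels Il1f6, Il1f8 and Il1rn had no value. Low signal leaves Il1a, Il1b and Il1f9 unassessed. The cause of the normexp and spike-in differences was not tested.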

Other observations

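A further probe, for the cDNA AK076547 that the array design describes as interleukin 1 family member 5, lies near the Il1f5 probe on mm8 (chr2:24100824-24100883). It carries no gene symbol on the array and was not counted as a member. Its signals were 102 in the control and 126 in the transgenic pool, not well above background, with log2 ratios of 0.31 and 0.94. These are ratios of undetected signal and give no direction.

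The values of Il1rl1 and Irak3 each rest on 1 of 3 probes, dim in the control channel. For Il1rl1, the probe of transcript variant NM_001025602 had log2 ratios of 1.69 and 0.53, while the probes listed under NM_010743 were at background, at -0.047 and 0.089 for one and -0.0010 and 0.19 for the other. For Irak3, the measured probe had 1.49 and 0.75, and the 2 undetected probes had means of -0.18 and -0.16. Ratios of undetected probes do not show that the probes of a gene differ.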
